A study of Mus musculus with 46 samples.

Results

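Retinoid X receptor alpha (RXRa, labelled RXR) and the bZIP factor CEBPb shared a small set of chromatin regions in vehicle-treated mouse liver at which no CEBPa peak was called. The regions were chosen from the 12 lists of vehicle livers collected 27 h after injection. Peaks of the 3 factors in livers C1 to C4 were joined on chromosomes 1 to 19 wherever they shared 1 bp or more, which gave 106660 regions. A region was kept when all 4 RXR lists and all 4 CEBPb lists held a peak in it and 0 of the 4 CEBPa lists did. This kept 0.144% of the regions, made up of 133 regions with a CEBPa peak in some other list of the series and 21 without one. The peak calls in these 12 lists therefore define the regions and are not results. The other 30 immunoprecipitated lists of the series took no part in the choice.

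RXR is the common partner of many nuclear receptors of the liver, among them CAR, PPARa, LXR and FXR, and binds repeated hexamer sites with them. CEBPa and CEBPb have closely related DNA-binding domains, can pair with each other and recognise the same palindromic site. CEBPa is known as a factor of the quiescent adult hepatocyte, and CEBPb as one that rises in the acute phase response and in liver growth. TCPOBOP is a potent agonist of mouse CAR and a strong stimulus of liver growth.

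All groups were adult male CD-1 mice, for which the labels give no genetic change. The TCPOBOP groups received 3 mg/kg, and the vehicle groups received DMSO in corn oil. Livers were collected at 3 h or 27 h. The 27 h groups held 4 livers each, C1 to C4 with vehicle and D1 to D4 with TCPOBOP, all from mice aged 8 weeks and all assayed for each of the 3 factors. At 3 h the CEBPa and CEBPb lists came from 3 vehicle livers (A44, A45, A46) and 3 TCPOBOP livers (D44, D45, D46) of mice aged 7 weeks. The RXR lists of 3 h came from 3 other vehicle livers (A1, A3, A4) and 3 other TCPOBOP livers (B1, B3, B4) of mice aged 8 weeks. Each list is the set of peaks called in 1 liver. The number of reads behind a list is unknown, and the lists carry no peak heights. Whole liver was used, so a weaker site in all cells and a site bound in fewer cells cannot be told apart.

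List length differed between the factors and times, and it moved with several results below. CEBPb lists held 45877 to 55513 peaks in TCPOBOP livers at 27 h but 11899 to 22984 at 3 h. CEBPa lists held 20396 to 29066 peaks in TCPOBOP livers at 27 h and 24273 to 35196 at 3 h. CEBPb lists were thus the longer ones in every 27 h liver and the shorter ones in every 3 h liver. All RXR lists shared 1 sequencing lane in the labels, while the CEBP lists of 3 h and 27 h lay on different flow cells. Time, flow cell and age of the mice cannot be told apart for the CEBP factors.

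RXR peaks were called again at most of the RXR and CEBPb regions in every other liver, CEBPb peaks at most of them at 27 h but at few at 3 h, and CEBPa peaks at part of them in every other liver. The share of the RXR and CEBPb regions with a peak in a list is called the call rate here. RXR was called at 96.1%, 95.5%, 85.1% and 93.5% of the regions in the TCPOBOP livers D1 to D4 of 27 h. At 3 h the RXR call rate was 99.4%, 88.3% and 98.1% in the vehicle livers A1, A3 and A4, and 98.1%, 96.8% and 98.7% in the TCPOBOP livers B1, B3 and B4. The lowest rates, in D3 and A3, belonged to the shortest RXR lists of their times, with 22619 and 22117 peaks. Over all 106660 regions RXR was called at 24.1% on average in TCPOBOP livers of 27 h and at 29.8% at 3 h.

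CEBPb was called at 87.0%, 90.9%, 77.9% and 84.4% of the regions in TCPOBOP livers D1 to D4 at 27 h. At 3 h the CEBPb call rate was 9.74%, 5.19% and 26.6% in the vehicle livers A44, A45 and A46, and 22.1%, 27.9% and 9.74% in the TCPOBOP livers D44, D45 and D46. Every 3 h liver lay far below every 27 h liver. CEBPb was also called less often at 3 h over all 106660 regions, at 16.6% on average against 41.4% in TCPOBOP livers of 27 h. The 3 h mean at the RXR and CEBPb regions, 16.9%, was near that share. CEBPa, absent by choice from the vehicle lists of 27 h, was called at 16.2%, 20.8%, 21.4% and 10.4% of the regions in D1 to D4. At 3 h it was called at 47.4%, 42.9% and 27.9% in vehicle livers A44, A45 and A46, and at 30.5%, 40.3% and 27.3% in TCPOBOP livers D44, D45 and D46. Over all regions CEBPa was called at 23.3% on average in TCPOBOP livers of 27 h and at 25.8% at 3 h. At the RXR and CEBPb regions the CEBPa rates at 3 h lay above all 4 of the TCPOBOP livers at 27 h. The name "without CEBPa" therefore describes 4 vehicle livers and not the series.

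**Figure D1:**
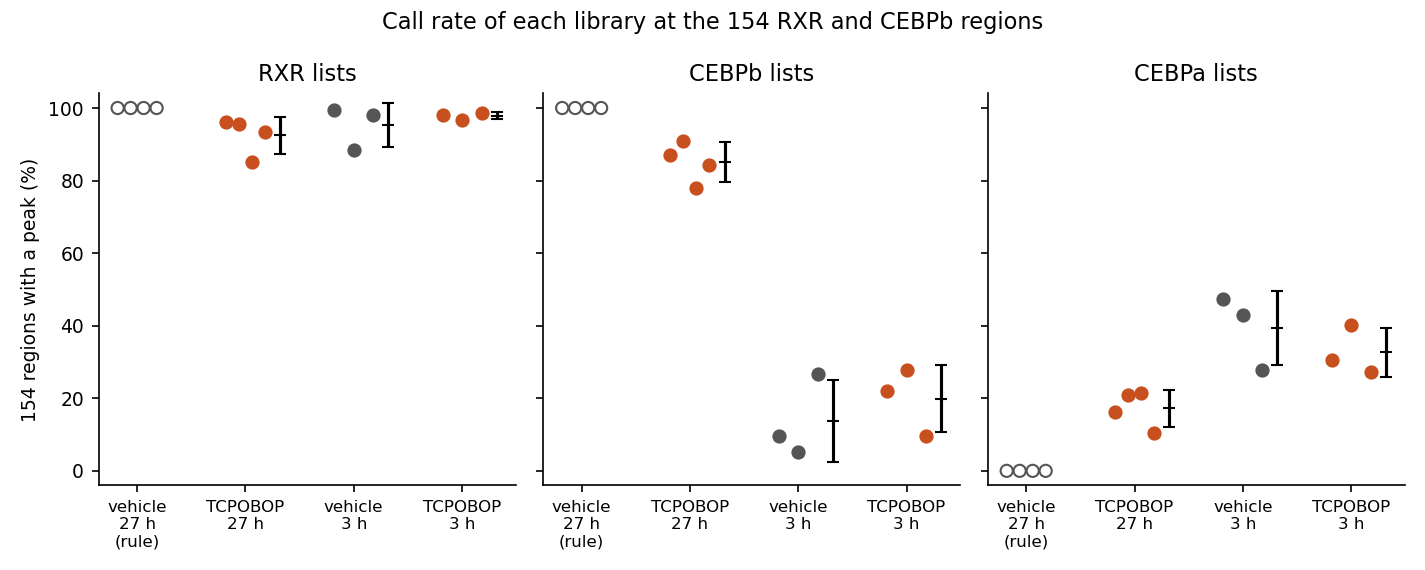
Share of the RXR and CEBPb regions with a peak (percent, y axis) in each library, by treatment and time (x axis), for RXR, CEBPb and CEBPa lists; filled points are livers outside the choice, open points are the vehicle 27 h livers that chose the regions, and bars are the mean ± SD of the filled points (n = 4 at 27 h, n = 3 at 3 h). RXR stays between 85.1% and 99.4%, CEBPb falls below 30% at 3 h, and CEBPa is between 10.4% and 47.4% in livers outside the choice.

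Region by region, RXR was called in all 10 lists outside the choice at 112 regions, which is 72.7%, against a background of 71.3% over the 17095 regions with RXR in 4 of 4 vehicle 27 h lists. It was called in all 6 lists of 3 h at 128 regions (83.1%), and the background over the same regions was 82.7%. Both shares were near those of RXR regions in general. CEBPb was called in all 10 lists outside the choice at 2 regions (1.30%), where the background over the 25466 regions with CEBPb in 4 of 4 vehicle 27 h lists was 31.1%. It was called in no list of 3 h at 65 regions (42.2%, background 11.8%) and in at least 1 of the 6 lists of 3 h at 89 regions (57.8%, background 88.2%). That background includes regions with CEBPa in the vehicle 27 h lists. Of the 940 regions with CEBPb in 4 and CEBPa in 0 such lists, 28.0% had CEBPa without CEBPb at 3 h and 24.3% neither. The shares of the RXR and CEBPb regions were 27.3% and 14.9%, so CEBPb was missing at 3 h from a smaller share of them.

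A CEBPa peak was called in at least 1 of the 10 CEBPa lists outside the choice at 133 regions (86.4%). Among all 53735 regions without a CEBPa peak in the vehicle 27 h lists, the same was true of 20.8%. The remaining 21 regions had no CEBPa peak in any list of the series. CEBPa was called in at least 5 of the 10 lists at 34 regions (22.1%, background 1.11%) and in all 6 lists of 3 h at 8 regions (5.19%, background 0.156%). Only 940 of the 53735 regions had CEBPb in all 4 vehicle 27 h lists, so these backgrounds are not matched for CEBPb. The 3 h calls are set beside those of all 940 regions with CEBPb in 4 and CEBPa in 0 vehicle 27 h lists, the RXR and CEBPb regions among them. Both CEBP factors had a peak in some list of 3 h at 81 regions (52.6%, against 39.6% of the 940), and CEBPa without CEBPb at 42 (27.3%, against 28.0%). CEBPb without CEBPa was found at 8 regions (5.19%, against 8.19%) and neither at 23 (14.9%, against 24.3%). More of the 3 h lists held CEBPa than CEBPb at 95 regions (61.7%, against 52.9% of the 940 and 31.5% of all 106660), and fewer at 14 (9.09%, against 11.7% and 3.93%). In TCPOBOP livers of 27 h, CEBPb was in more lists than CEBPa at 148 regions (96.1%, against 94.3% of the 940 and 39.7% of all). CEBPa lists were the longer ones in each liver of 3 h and the shorter ones in each liver of 27 h, and their part in these tallies was not tested.

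**Figure D2:**
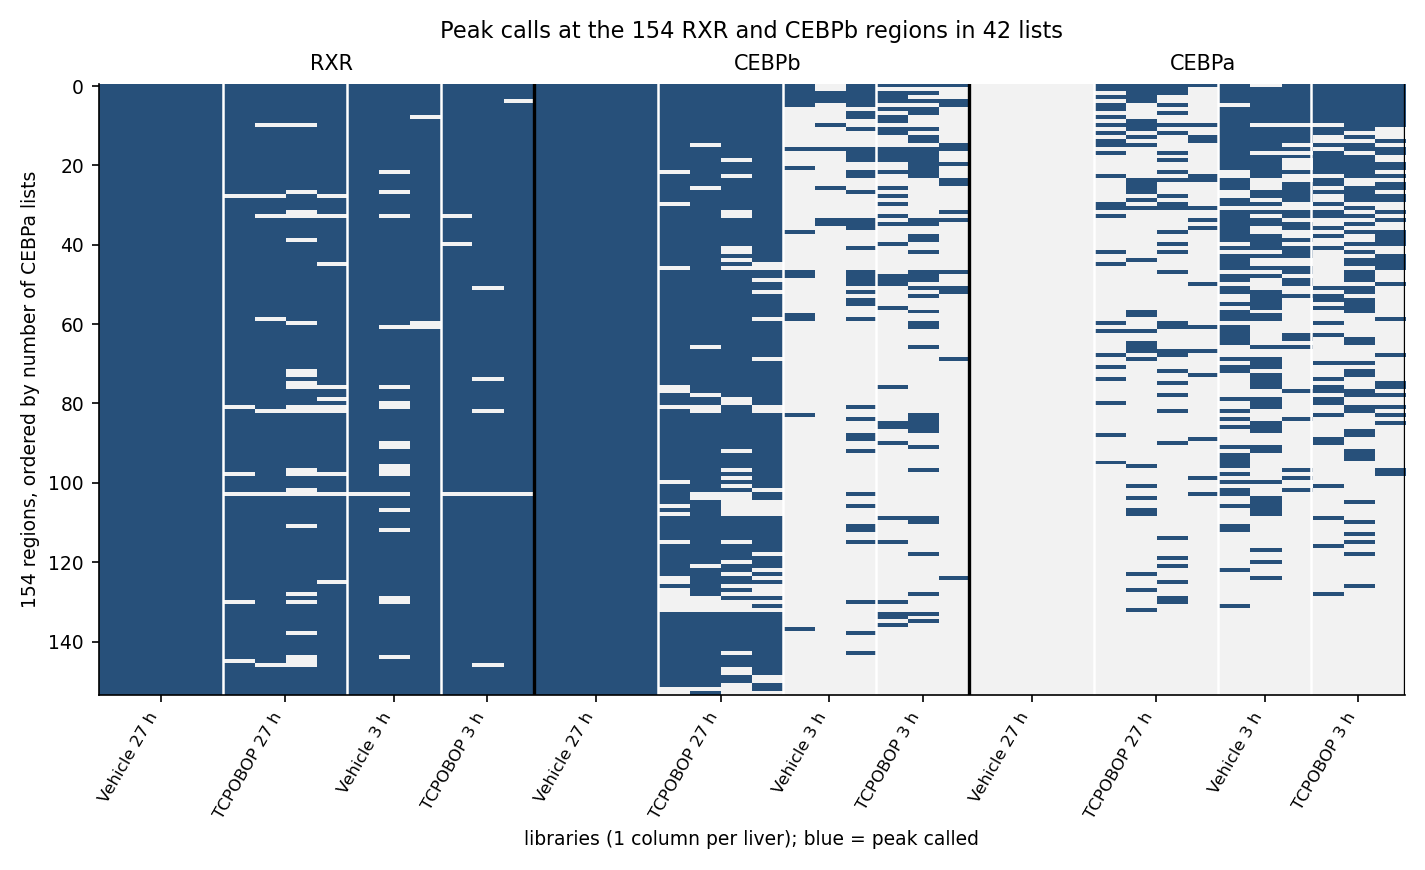
Peak calls (blue) at the RXR and CEBPb regions (rows, ordered by the number of CEBPa lists outside the choice with a peak) in the 42 immunoprecipitated lists (columns, 1 per liver, grouped by factor, treatment and time). The RXR block is nearly full in every group, the CEBPb block is full or nearly so at 27 h and sparse at 3 h, and CEBPa calls are spread over 133 regions outside the vehicle 27 h lists.

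Each TCPOBOP liver of 27 h had a list for every factor, and within single livers the arrangement that defined the regions was the most frequent one. The choice, made in the vehicle livers of 27 h, favours that arrangement. Arrangements in single livers were not counted over all regions, so the values are descriptions. RXR and CEBPb without CEBPa were called at 68.8%, 70.8%, 50.6% and 70.1% of the regions in D1 to D4. All 3 factors were called at 24, 26, 25 and 15 regions, and RXR alone at 17, 7, 26 and 21. D3 stood below the other livers for the first arrangement, and it also had the shortest RXR and CEBPb lists of the TCPOBOP group. None of the factors was called at 2 to 5 regions per liver. The arrangement was the same in all 4 TCPOBOP livers, with RXR and CEBPb in 4 of 4 lists and CEBPa in 0, at 39 regions (25.3%, against 0.494% of all 106660 regions). Of these 39 regions, which have the same calls in all 8 livers of 27 h, 30 had a CEBPa peak in at least 1 list of 3 h. The same held for 123 (79.9%) of the whole set of RXR and CEBPb regions. The background over regions without CEBPa in the vehicle 27 h lists was 16.9%, which is not matched for CEBPb. Of the 940 regions with CEBPb in 4 and CEBPa in 0 such lists, 39.6% had both CEBP factors at 3 h and 28.0% CEBPa without CEBPb. At 3 h the CEBPa call rate of the 39 regions was 34.6% ± 12.8 (SD, n = 6), and their CEBPb call rate was 20.5% ± 16.2 (SD, n = 6).

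Whether TCPOBOP changed the calls at 27 h was not tested on these regions, because their vehicle calls were set by the choice and other livers can show only as many or fewer RXR and CEBPb peaks there and as many or more CEBPa peaks. The mirrored choice, with the treatments exchanged, is given beside it. The same rule applied to the 12 TCPOBOP lists of 27 h chose 530 regions out of 105457, and vehicle livers C1 to C4 were then the ones outside the choice. RXR was called there at 93.6% ± 2.86, CEBPb at 71.9% ± 11.3 and CEBPa at 26.3% ± 8.73 of the 530 regions in vehicle livers (SD, n = 4 each). At the RXR and CEBPb regions the TCPOBOP livers showed 92.5% ± 5.10 for RXR, 85.1% ± 5.46 for CEBPb and 17.2% ± 5.10 for CEBPa (SD, n = 4 each). The 2 sets of regions had 38 in common, which is 24.7% of the regions chosen in vehicle livers and 7.17% of the 530. At 27 h CEBPb lists averaged 50457 peaks after TCPOBOP and 44201 after vehicle. In the same order CEBPa lists averaged 26776 and 31984 peaks, and RXR lists 28401 and 30418. The part of list length in the sizes of the 2 sets was not tested.

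Calls that left or appeared in all 4 TCPOBOP livers were few. RXR had no peak in any TCPOBOP liver of 27 h at 1 region (0.649%, background 0.760%), and CEBPb at 2 regions (1.30%, background 0.134%). CEBPa had a peak in all 4 TCPOBOP livers at 3 regions (1.95%, background 0.0428%). RXR was called in all 4 TCPOBOP lists at 126 regions (81.8%, background 77.8%), and CEBPb at 94 regions (61.0%, background 91.1%). The choice used the vehicle lists of these contrasts, so nothing is read from the counts.

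At 3 h both treatments were outside the choice, and no difference between them passed the test. RXR was called at 97.8% ± 0.992 of the regions after TCPOBOP and 95.2% ± 6.03 after vehicle (SD over 3 livers each; exact two-sided permutation p = 0.9, adjusted p = 0.9). CEBPa was called at 32.7% ± 6.76 after TCPOBOP and 39.4% ± 10.2 after vehicle (SD over 3 livers each; exact permutation p = 0.4, adjusted p = 0.9). The CEBPb rates were 19.9% ± 9.28 after TCPOBOP and 13.9% ± 11.3 after vehicle (SD over 3 livers each; exact permutation p = 0.6, adjusted p = 0.9). The groups overlapped for each factor, and 3 livers against 3 cannot give an exact p below 0.1. The RXR difference was 2.6 percentage points with the deposited lists, -0.866 without the vehicle liver A3, and -3.25 with lists of equal length. No region had a peak in 3 of 3 livers of one treatment and 0 of 3 of the other for any factor, where the background over regions with a 3 h peak was 0.273% higher and 0.120% lower for RXR, 0.354% and 0.652% for CEBPa, and 0.681% and 0.105% for CEBPb.

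The order of the CEBP factors turned between the times. In the 4 TCPOBOP livers of 27 h, CEBPb exceeded CEBPa by 67.9 percentage points ± 3.88 (SE, n = 4), with 56.5 to 74.0 points in single livers. In the 6 livers of 3 h, CEBPa exceeded CEBPb in each one, and CEBPb minus CEBPa averaged -19.2 points ± 6.24 (SE, n = 6; exact two-sided sign-flip p = 0.0312, the smallest that 6 livers allow). The regions were chosen at 27 h for having CEBPb and lacking CEBPa, so the direction in other livers of 27 h is favoured by the choice and is a description. Over all 10 livers the difference was 15.6 points ± 14.7 (SE, n = 10; exact sign-flip p = 0.309), a mean of opposite values. The times were 87.0 points apart, which is likewise a description, and all livers of 27 h here had TCPOBOP while those of 3 h held both treatments.

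List length moved with this order. When both CEBP lists of a liver were cut to the length of the shorter one by keeping the widest peaks, CEBPb minus CEBPa at 3 h averaged -1.3 points, with CEBPb higher in 3 livers and CEBPa in 3 (n = 6, exact sign-flip p = 0.469). In the TCPOBOP livers of 27 h, CEBPb still exceeded CEBPa in 4 of 4 livers, at 42.9% on average (28.6% to 51.9%) against 17.2% (10.4% to 21.4%; n = 4). With all 20 lists cut to 11733 peaks on chromosomes 1 to 19, a setting added with the data in view, CEBPb and CEBPa were called at 16.4% ± 4.81 and 2.92% ± 1.24 of the regions at 27 h (SD, n = 4). At 3 h both rates were then 8.98% (SD of 3.95 for CEBPb and 1.39 for CEBPa, n = 6). The difference between the times was 26.9 points with equal lengths per liver and 13.5 points with 1 length. Such cuts remove the narrowest peaks first. The median CEBPa peak called here at 3 h lay at width percentile 34.1 of its list on average. For CEBPb in TCPOBOP livers of 27 h the value was 48.2. The part of peak width in these changes was not tested. CEBPb-only regions, described below and chosen at 27 h in the same way for the CEBP factors, had the same signs as deposited. CEBPb minus CEBPa was 62.4 points ± 5.00 there at 27 h (SD, n = 4) and -12.5 points ± 9.49 at 3 h (SD, n = 6). With equal lengths per liver it was 8.91 to 20.9 points at 27 h (n = 4) and 1.32 points ± 0.842 at 3 h (SD, n = 6). At regions of all 3 factors CEBPb minus CEBPa was 0.898 points ± 1.27 at 27 h (SD, n = 4) and -0.469 points ± 1.67 at 3 h (SD, n = 6) with equal lengths per liver.

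**Figure D3:**
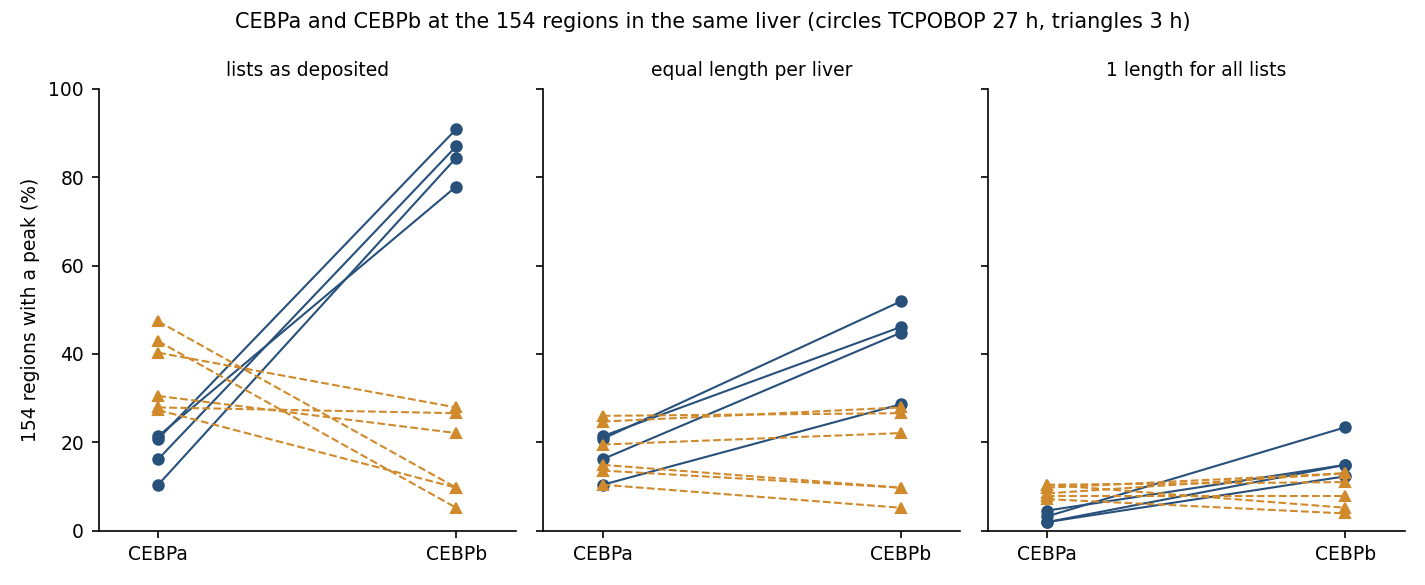
CEBPa and CEBPb call rates (percent of the RXR and CEBPb regions, y axis) in the 10 livers outside the choice that have both lists, each line 1 liver; circles are TCPOBOP livers of 27 h and dashed triangles livers of 3 h, shown for the deposited lists, for both lists of a liver cut to equal length, and for 1 length throughout. CEBPb lies above CEBPa in 4 of 4 livers of 27 h in every panel, while the CEBPa lead in 6 of 6 livers of 3 h is seen with the deposited lists.

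Regions that differed in the choice by their CEBPa calls alone showed a graded series. RXR and CEBPb were called in all 8 of their vehicle 27 h lists at 6312 regions, of which the regions without CEBPa were 2.44%. There were 302 such regions with CEBPa in 1 of 4 vehicle lists, 457 with CEBPa in 2, 776 with CEBPa in 3 and 4623 with CEBPa in all 4. In TCPOBOP livers of 27 h the CEBPa call rate was 17.2% ± 5.10 for 0 vehicle lists, 27.5% ± 8.22 for 1, 41.6% ± 10.8 for 2, 63.2% ± 10.9 for 3 and 94.4% ± 2.82 for 4 (SD, n = 4 each). In the 3 h livers it was 36.0% ± 8.56, 49.5% ± 9.64, 60.7% ± 9.03, 77.6% ± 7.61 and 96.5% ± 1.56 in the same order (SD, n = 6 each). The SDs of neighbouring steps overlapped up to 3 vehicle lists at 27 h and up to 2 at 3 h. CEBPb at 3 h rose along the same series from a mean of 16.9% (5.19% to 27.9%) to 23.0% (5.30% to 35.4%), 31.3% (up to 44.6%), 46.8% (up to 60.4%) and 86.6% (74.2% to 92.7%; n = 6 lists each), while RXR at 3 h stayed between 96.0% and 97.4%. These steps are a description without a test, since the number of CEBPa lists ordered them.

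**Figure D4:**
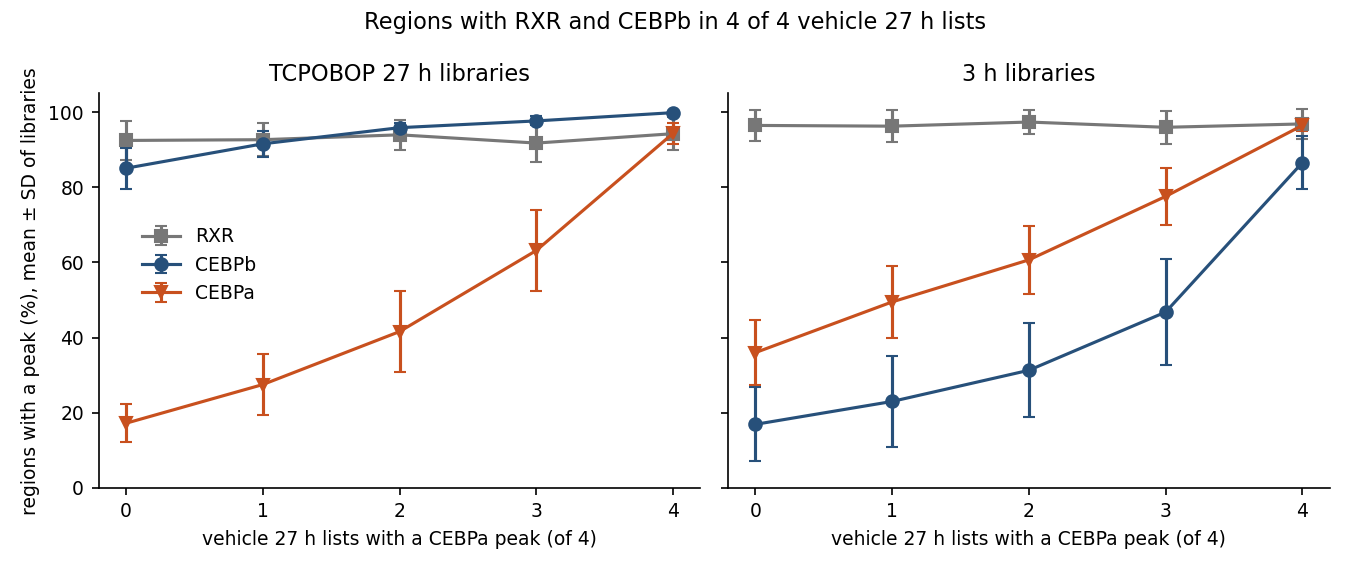
Mean call rate ± SD over libraries (percent, y axis) of RXR, CEBPb and CEBPa at the 6312 regions with RXR and CEBPb in 4 of 4 vehicle 27 h lists, by the number of vehicle 27 h lists with a CEBPa peak (x axis, 0 being the RXR and CEBPb regions without CEBPa), in TCPOBOP 27 h libraries (n = 4 per factor) and 3 h libraries (n = 6 per factor). CEBPa rises from 17.2% to 94.4% at 27 h and from 36.0% to 96.5% at 3 h, CEBPb at 3 h rises with it, and RXR is flat.

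Just outside the choice, the factor that missed 1 vehicle list was called less often. The 329 regions with CEBPb in 3 of 4 vehicle lists, and RXR in 4 and CEBPa in 0, had CEBPb at 68.4% ± 5.65 and CEBPa at 9.35% ± 2.83 in TCPOBOP livers of 27 h (SD, n = 4), against 85.1% and 17.2% inside. The 49 regions with RXR in 3 of 4 lists, and CEBPb in 4 and CEBPa in 0, had RXR at 69.4% ± 13.2, against 92.5% inside, and CEBPa at 15.3% ± 4.86 in the same livers (SD, n = 4). The 302 regions with 1 CEBPa list are given above.

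The RXR and CEBPb regions were then compared with 3 other classes formed from the same 12 vehicle lists, in the 10 libraries per factor outside the choice. The classes were 4623 regions of all 3 factors, with a peak in all 12 lists, 7299 RXR-only regions, with RXR in 4 lists and no CEBP peak, and 617 CEBPb-only regions, with CEBPb in 4 lists and neither RXR nor CEBPa. Both classes of a comparison were scored in the same list, so the length of the list was shared. Region width was not, with medians of 570 bp for the RXR and CEBPb regions, 484 bp for RXR-only and 300 bp for CEBPb-only regions. The part of region width in the comparisons was not tested. The 7 comparisons were tested with exact two-sided sign flips over 10 libraries, for which p = 0.00195 is the smallest possible, and adjusted over 7, and 1 of them is given without its p because the choice fixed it.

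CEBPa was called at 28.5% of the RXR and CEBPb regions (10.4% to 47.4%) and at 1.09% ± 0.753 of RXR-only regions (SD, n = 10; higher in 10 of 10 lists; exact sign-flip adjusted p = 0.00342). It was called at 95.7% ± 2.29 of regions of all 3 factors (SD, n = 10), a description without a test, since the classes were chosen to differ in CEBPa. At CEBPb-only regions the CEBPa rate was 21.1% ± 7.60 (SD, n = 10), which the RXR and CEBPb regions exceeded by 7.40 points ± 2.24 (SE; 8 of 10 lists; exact adjusted p = 0.0160). That excess was 12.2 points in the 3 h lists (6 of 6) and 0.271 points in the TCPOBOP 27 h lists (2 of 4). In this excess TCPOBOP livers of 27 h minus livers of 3 h gave -11.9 points. That value is a description, since both classes were chosen for lacking CEBPa at 27 h. Without the vehicle liver C3 in the choice, the excess over both times was 3.65 points and no longer passed the test (exact adjusted p = 0.172).

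CEBPb was called at 44.2% ± 36.1 of the RXR and CEBPb regions in the 10 lists, at 91.9% ± 8.62 of regions of all 3 factors and at 38.6% ± 35.4 of CEBPb-only regions (SD, n = 10). The RXR and CEBPb regions were lower than the former in 10 of 10 lists and higher than the latter in 10 of 10 (exact sign-flip adjusted p = 0.00342 for each). The excess over CEBPb-only regions was 5.69 points at 27 h and 5.48 points at 3 h. It was 3.08 points without the narrowest 25% of the peaks of each list, where it did not pass the test (exact adjusted p = 0.143). The RXR and CEBPb regions minus regions of all 3 factors gave -14.8 points in TCPOBOP livers of 27 h, where regions of all 3 factors were called at 99.9%, and -69.7 points at 3 h.

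RXR was called at 94.9% ± 4.73 of the RXR and CEBPb regions, at 92.4% ± 5.76 of RXR-only regions and at 95.9% ± 4.14 of regions of all 3 factors (SD, n = 10). The excess over RXR-only regions was 2.49 points ± 0.510 (SE; 9 of 10 lists; exact sign-flip adjusted p = 0.00547), and it was 1.5 points and did not pass the test without the narrowest 25% of peaks (exact adjusted p = 0.0729). The RXR and CEBPb regions minus regions of all 3 factors gave -0.927 points ± 0.362 (SE, n = 10; higher in 3 of 10 lists; exact adjusted p = 0.0312). It was -0.687 points with no CEBPa peak within 500 bp, -1.55 without the narrowest 25% of peaks and -1.49 with lists of equal length, and passed the test in none of these 3 cases. Leaving out single livers of the choice or single lists also ended the call in 8 of 14 cases.

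**Figure D5:**
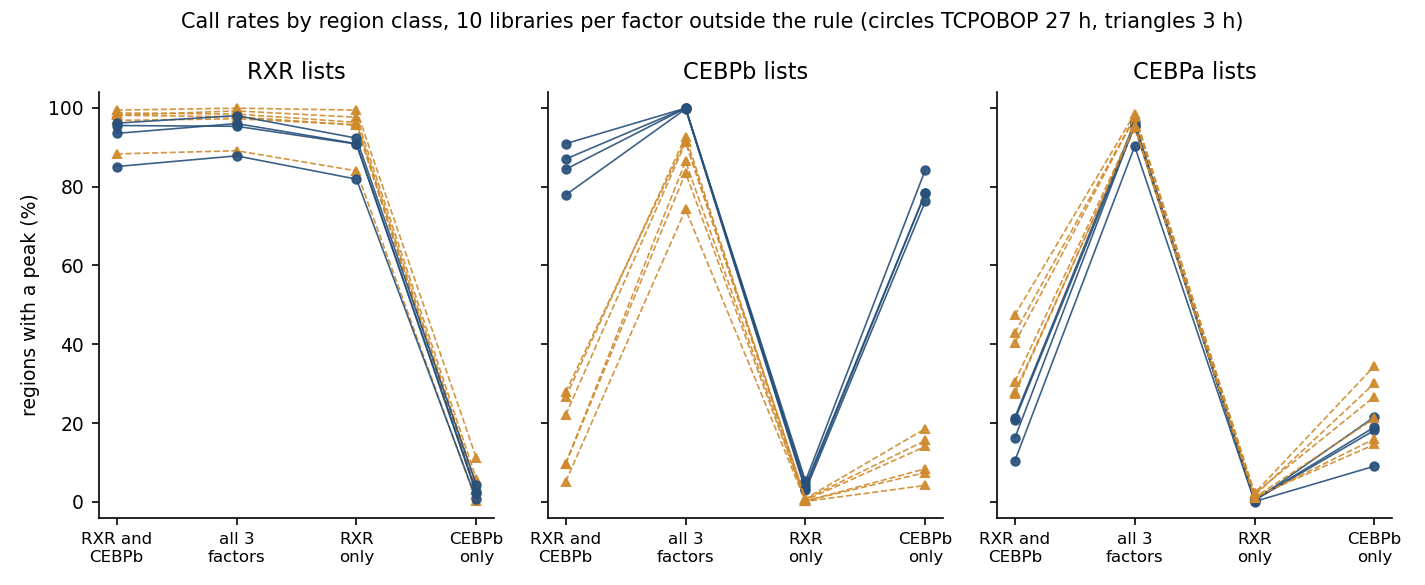
Call rates (percent of regions, y axis) of RXR, CEBPb and CEBPa in the 10 libraries per factor outside the choice, for the RXR and CEBPb regions, regions of all 3 factors, RXR-only and CEBPb-only regions (x axis); each line is 1 library, circles are TCPOBOP livers of 27 h and dashed triangles livers of 3 h. In CEBPa lists the RXR and CEBPb regions lie between RXR-only regions, at 1.09% on average, and regions of all 3 factors, at 95.7%.

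Peak width, the only size in the lists, placed the RXR and CEBP peaks of these regions differently within their lists. The width of a peak was expressed as its percentile among all peaks of its list. In the vehicle 27 h lists the median RXR peak at the RXR and CEBPb regions lay at percentiles 59.6 to 69.2, and at regions of all 3 factors at 65.3 to 71.0. The median CEBPb peak lay at percentiles 35.8 to 46.6, against 81.3 to 83.2 at regions of all 3 factors. In base pairs, the list medians for CEBPb were 239 to 268 bp at the RXR and CEBPb regions and 342 to 364 bp at regions of all 3 factors. The CEBPb peaks were thus narrower than the typical CEBPb peak, and the RXR peaks were wider than the typical RXR peak. The same held for CEBPb peaks at CEBPb-only regions, at percentiles 29.9 to 36.4, and for RXR peaks at RXR-only regions, at 57.9 to 64.8. These widths come from the lists of the choice and are descriptions.

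In lists outside the choice the CEBPb peaks again had lower percentiles than those at regions of all 3 factors. In TCPOBOP livers of 27 h the median width percentile at the RXR and CEBPb regions was 64.7 ± 2.67 for RXR, 48.2 ± 5.31 for CEBPb and 23.2 ± 2.72 for the CEBPa peaks that were called there (SD of 4 list medians). At regions of all 3 factors the values were 67.7 ± 3.07, 83.4 ± 0.692 and 74.8 ± 2.94 in the same order. At 3 h the list medians of the CEBPb peaks ran from 23.3 to 57.7, with a median of 38.1, against 64.4 to 73.1 at regions of all 3 factors (6 lists). The CEBPa peaks at the RXR and CEBPb regions had a median percentile of 34.1 ± 6.98 at 3 h (SD of 6 list medians), so the CEBPa peaks called there were among the narrower ones of their lists at both times. Peaks at CEBPb-only regions were narrow too. There the values were 39.7 ± 3.23 for CEBPb and 24.3 ± 4.28 for CEBPa in TCPOBOP livers of 27 h (SD of 4 list medians). At 3 h they were 24.5 ± 4.39 and 29.7 ± 2.72 (SD of 6 list medians). Whether narrow peaks of this kind lie close to the caller's threshold was not tested, as no peak scores are in the lists.

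The regions also differed among themselves by the width of the CEBPb peak in the vehicle livers. Among the 51 regions with the narrowest CEBPb peaks, at a mean percentile of 10.8 to 34.3, CEBPb was called at 77.9% ± 7.74 in TCPOBOP livers of 27 h (SD, n = 4). Among the 51 with the widest, at 51.1 to 99.5, it was called at 91.7% ± 2.94 (SD, n = 4). At 3 h the CEBPb call rates of these sets were 13.4% ± 8.54 and 23.2% ± 15.4, and the CEBPa call rates 30.1% ± 11.1 and 43.1% ± 9.69 (SD, n = 6 each). The single lists overlapped between the sets for both factors at 3 h. The 21 regions without any CEBPa peak in the series had CEBPb at 85.7% ± 10.3 in TCPOBOP livers of 27 h (SD, n = 4), against 85.0% ± 4.72 at the other 133, and at 6.35% ± 5.77 at 3 h against 18.5% ± 10.6 (SD, n = 6).

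The regions were 299 to 1465 bp wide, with a median of 570 bp, against 622 bp for regions of all 3 factors, 484 bp for RXR-only and 300 bp for CEBPb-only regions. RXR and CEBPb peaks of the same liver overlapped in all 4 vehicle livers at 81.2% of the regions and in none at 2 regions. The midpoints of the RXR and CEBPb peaks were a median of 92.1 bp apart, averaged over 4 livers, with 82 of the regions (53.2%) at 100 bp or less. At regions of all 3 factors the median was 82.0 bp, with 58.7% at 100 bp or less, and the peaks overlapped in all 4 livers at 93.0%. The nearest CEBPa peak of any vehicle 27 h list lay at a median gap of 3682 bp, and within 500 bp at 11 regions (7.14%). The gap was 4407 bp for RXR-only regions, with 10.8% within 500 bp. For CEBPb-only regions it was 8606 bp, with 4.54% within 500 bp.

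The RXR and CEBPb regions were spread over all 19 autosomes, with 3 to 15 per chromosome. The most were on chromosome 7 with 15 regions, 9.74% of the set, where 5.32% of the 6312 regions with RXR and CEBPb lay. No 2 of the regions were within 10 kb of each other, and 8 lay within 100 kb of another. The median gap to the nearest other one was 4849 kb.

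Single regions show how far the calls varied. Positions are given on mm9 with starts counted from 1. Genes are not named, since mm9 gene positions were not used here. A region with RXR and CEBPb in all 20 lists outside the choice and CEBPa in none was looked for, and 0 regions met this. The nearest, chosen after the values were seen, was at chr8:42240408-42240858. RXR was called there in all 10 lists, CEBPb in 6 of 10 and CEBPa in 0 of 10. The 4 next had RXR in 10 lists, CEBPb in 5 and CEBPa in 0. They lay at chr5:119781452-119781816, chr10:127895423-127896174, chr16:24777143-24777543 and chr17:84587747-84588602. In each of these 5 regions CEBPb was called in 4 of 4 TCPOBOP livers at 27 h and in 1 or 2 of 6 livers at 3 h.

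The regions with the most CEBPa lists had CEBPa in 7 to 9 of the 10 lists outside the choice. At chr1:13193679-13194192, CEBPa was called in 4 of 4 TCPOBOP livers of 27 h and in 5 of 6 livers of 3 h, and CEBPb in 9 and RXR in 10 of 10 lists. At chr8:23703666-23704980, CEBPa was called in 9 of 10 lists, and the RXR and CEBPb midpoints were 780 bp apart. Of 3 further regions, 2 had CEBPa in 8 of 10 lists and 1, among 7 such regions, in 7 of 10. They lay at chr5:149789863-149790464, chr8:18845632-18846785 and chr7:20378285-20378929. At all 5 regions RXR was called in 10 of 10 lists. Besides the first, CEBPa was called in 4 of 4 TCPOBOP livers of 27 h at chr12:82289420-82289813 and at chr19:37624791-37625569, both singled out after their values were seen. Those had CEBPa in 3 and 1 of 6 livers at 3 h.

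RXR was called in 1 of the 10 lists outside the choice at a single region. At chr7:118056121-118056558, it was called in 0 of 4 TCPOBOP livers of 27 h and in 1 of 6 livers of 3 h, a vehicle liver. CEBPb was called there in 3 of 10 lists and CEBPa in 2 of 10. Of the other regions with few RXR lists, chr2:50911882-50912329 had RXR in 5 of 10. RXR was called in 6 of 10 at chr7:103959020-103959393, chr8:81870219-81870744 and chr14:31925449-31925794. Each of these 4 had RXR in 1 of 4 TCPOBOP livers of 27 h but in 4 or 5 of 6 livers of 3 h.

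CEBPb was called in none of the 10 lists outside the choice at 1 region, at chr5:151991715-151992171, where RXR was called in 10 of 10 lists and CEBPa in 1. Its CEBPb peaks in the vehicle livers were narrow, at a mean width percentile of 11.9. A CEBPb peak in 1 of 10 lists was found at 5 regions. All 5 had RXR in 10 of 10 lists, and the 4 named by the rule lay at chr1:93790812-93791256, chr2:31929510-31930467, chr9:55889534-55890165 and chr10:81105907-81106761. The second region without CEBPb in TCPOBOP livers of 27 h, at chr11:28715052-28715520, had CEBPb in 2 of 6 livers at 3 h and RXR in 7 of 10 lists. At the other end, CEBPb was called in all 10 lists at chr2:31995773-31996288 and at chr6:71425454-71426111, both singled out after their values were seen. CEBPa was called there in 5 and 7 of 10 lists.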

How the data were processed

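Chromatin immunoprecipitation followed by sequencing was done on single livers, with 42 immunoprecipitated and 4 input libraries. The submitters' processing notes name Bowtie2 2.3.2, MACS2 and mm9. Neither settings nor the MACS2 version are given in the sources used. The authors deposited, per library, 1 list of peak starts and ends with no score, fold or p-value, so width percentiles were used in their place. Whether width follows the strength of a peak was not tested. Starts were raised by 1. At most 0.0359% of peaks were identical in 54 pairs of lists within groups.

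Regions were merged and scored with a minimum overlap of 1 bp. Comparisons used exact permutation and sign-flip tests over livers with Benjamini-Hochberg adjustment, and a threshold of 0.05. The merging and choice were checked on simulated lists, in which 200 of 200 planted regions were recovered. The regions, classes and tests were chosen with earlier results of these data known; the comparison between times and the single common list length were added later. Regions named in the text had the most CEBPa, fewest RXR or fewest CEBPb lists, 5 each, or no RXR or CEBPb peak in TCPOBOP livers of 27 h. Labels do not say that equal liver numbers mark a pair. Nothing in the lists allows the tissue label to be checked. Sequences and gene positions of mm9 were not used here. The software was pandas 2.3.3, numpy 2.4.6, scipy 1.17.1 and matplotlib 3.10.9 under Python 3.11.15.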

Additional observations from a re-analysis of the deposited data

Results flagged for a closer look

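In TCPOBOP livers of 27 h, CEBPb minus CEBPa at the RXR and CEBPb regions was 87.0 percentage points higher than at 3 h. The regions were chosen in livers of 27 h for having CEBPb and lacking CEBPa, so this direction is favoured by the choice, and the value is a description. The lists of CEBPb held 11899 to 22984 peaks at 3 h and 45877 to 55513 in TCPOBOP livers at 27 h, and the difference was 26.9 points with both lists of a liver cut to equal length. Time, flow cell and age of the mice cannot be told apart, and the 3 h livers hold both treatments.

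The distance of the RXR and CEBPb regions from other classes also differed between TCPOBOP livers of 27 h and livers of 3 h. For CEBPa it differed by -16.7 points against regions of all 3 factors, a description, since these classes were chosen to differ in CEBPa. It differed by -17.6 points against RXR-only regions, where CEBPa was called at 0.356% at 27 h and 1.58% at 3 h. That value is thus nearly the change at the RXR and CEBPb regions alone. Their lack of CEBPa at 27 h was chosen, so it is a description. Against CEBPb-only regions it differed by -11.9 points, likewise a description, since both classes were chosen for lacking CEBPa at 27 h. For CEBPb against regions of all 3 factors the times differed by 54.9 points. This too is a description, since both classes were chosen for CEBPb at 27 h and the latter was called at 99.9% there. No difference passed the test for RXR, nor for CEBPb against CEBPb-only regions (exact permutation, p adjusted over 8 comparisons of 0.0762 to 0.948).

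Among 10 groups of 4 TCPOBOP livers, 3 held a liver set apart relative to the range of its group, where chance flags about 1 in 20. CEBPa was called at 90.2% of regions of all 3 factors in D4, RXR at 81.9% of RXR-only regions in D3, and CEBPb at 99.7% of regions of all 3 factors in D3. The last is a saturated rate, with 4610 regions called in D3 and 4618 or 4619 of 4623 in the others. D4 had the shortest CEBPa list and D3 the shortest RXR and CEBPb lists of that group.

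The input control of liver A38, chromatin without immunoprecipitation, had a peak at 5 of the RXR and CEBPb regions (3.25%), against 0.792% of all regions, 1.99% of regions of all 3 factors, 2.03% of RXR-only and 0.486% of CEBPb-only regions. The other input lists had no peak there. Leaving out all peaks that overlap an input peak reduced the set to 149 regions, and no test result crossed the threshold.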

How the results depend on the processing

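Of 103 results under other settings, 92 kept their direction and side of the threshold (counts within 1.5 times), as did 144 of 164 with 1 liver or list left out. The cause of the others was not tested, except where fewer livers raise the smallest possible p. Requiring 3 of 4 lists in place of 4 gave 648 regions, and leaving out 1 vehicle liver gave 272 to 486. The 3 h TCPOBOP effect on RXR turned to -3.25 points with lists of equal length and ranged from -0.866 to 4.65 with 1 list left out. CEBPb minus CEBPa at 3 h missed the threshold at -18.9 (100 bp overlap for merging), -18.2 (no CEBPa within 500 bp), -1.30 (equal length) and 0 points (1 length, added with the data in view). It ranged from -22.7 to -15.5 with 1 liver left out. RXR against regions of all 3 factors missed it at -1.55 (without the narrowest 25% of peaks), -0.687 (no CEBPa within 500 bp) and -1.49 points (equal length), and ranged from -1.44 to -0.388 with 1 left out. Without the narrowest 25% of peaks, RXR against RXR-only at 1.50 and CEBPb against CEBPb-only at 3.08 points missed it too. CEBPa against CEBPb-only ranged from 3.65 to 8.53 with 1 left out.

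Whether equal liver numbers mark pairs was not settled. At 3 h the correlations of deviations were -0.0839 to 0.157 for equal numbers and -0.145 to 0.114 for different numbers, which overlap. With the number as a replicate block, the 3 h differences were 2.60 (RXR), -6.71 (CEBPa) and 6.06 points (CEBPb), with exact sign-flip p of 0.75, 0.25 and 0.75, and no call changed. Without the liver as a block, CEBPb minus CEBPa over 10 livers was 15.6 points (exact permutation p = 0.212). Read depth and peak scores are unknown, so a missing peak is not evidence of no binding.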
